A study of Mus musculus with 12 samples.

Results

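The axon guidance ligands and receptors are the genes whose mouse symbols name a semaphorin of class 3 to 7, a plexin, a neuropilin, an Eph receptor, an ephrin, a netrin, a netrin receptor (*Dcc*, *Neo1* or the *Unc5* genes), a Slit or a Robo. The rule uses the symbol alone and no measured value. The annotation holds 70 such genes, of which 61 are among the 15687 genes of the expression table. The other 9 (*Sema5b*, *Plxnb3*, *Epha6*, *Epha8*, *Epha10*, *Ntn3*, *Dcc*, *Unc5d* and *Robo3*) have no row there and were not analysed here.

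RNA was sequenced from 12 subcutaneous allograft tumors of mTC11, a mouse lung cancer line. Cells had been transduced with a lentivirus encoding either a scrambled shRNA (the CTL group, 6 tumors, genotype labelled WT) or an shRNA against *Filip1l* (the *Filip1l*-knockdown or KD group, 6 tumors), followed by selection of puromycin-resistant mixed clones. All hosts were male C57BL6/J mice aged 8 weeks with an intact immune system, each given cells in growth factor-reduced Matrigel under the skin, and every tumor was taken and frozen on day 24. The comparison asks which genes differ in tumors whose cells carried the *Filip1l* hairpin. Of the 2 hairpin sequences used for mTC11 in the study, the labels do not say which the sequenced tumors carried, so an effect of *Filip1l* and an effect particular to a hairpin or to the selected cells cannot be told apart.

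Semaphorins, ephrins, netrins and Slits are cues that steer growing axons by attracting or repelling the growth cone. Secreted class 3 semaphorins act mostly through a neuropilin paired with a plexin, membrane-bound semaphorins bind plexins directly, ephrins bind Eph receptor tyrosine kinases on neighboring cells, netrins bind Dcc, neogenin and Unc5 proteins, and Slits bind Robo proteins. The same proteins shape blood vessels, epithelial adhesion and cell migration in many organs, including the lung, and many are altered in carcinomas.

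Values are read counts per gene divided by the authors' size factor for each tumor (normalized counts). They compare the same gene between tumors. Log2 fold changes, or log2 changes, are differences of mean log2(normalized count + 1), *Filip1l*-knockdown minus CTL, from limma, with p-values adjusted over all 15687 genes. A gene was called where the adjusted p fell below 0.05 and the log2 fold change was over 1 in either direction. The tumors are labelled as separate biological replicates, and p-values measure the spread between them. In a bulk library, fewer cells of a type and less RNA per cell cannot be told apart.

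Reads on listed genes numbered from 17834745 to 32419578 per tumor, and 3 reads, the floor below which a value is not separable from 0, came to 3.15 normalized counts on average in CTL tumors and 2.91 in KD tumors. *Filip1l* itself held 1983 to 2542 normalized counts in CTL and 1670.1 to 2184 in KD tumors, overlapping ranges with a log2 change of -0.26 (standard error 0.07, adjusted p = 0.00998). Marker lists also moved. Epithelial markers were called higher in 6 of 8 cases, neutrophil markers in 6 of 6 and skeletal muscle markers in 8 of 9, where 6.20% of all genes were called higher. Ranges of the groups were separated for 6 epithelial, 5 neutrophil and 0 muscle markers, where 21.5% of all genes had separated ranges. The summed muscle level was uneven, with overlapping ranges of 2677 to 13350 normalized counts in CTL and 6416 to 94472 in KD tumors. Of the epithelial markers, *Krt18* rose by the adjusted p alone and *Cdh1* did not pass (log2 change 0.01, adjusted p = 0.95). *Krt8*, the most abundant of them, had means of 56576 normalized counts in CTL and 121129 in KD tumors. The summed epithelial level was 149757 to 196608 normalized counts in CTL tumors and 217523 to 397217 in KD tumors, and the part of these contents in the members' values was not tested. Macrophage markers had a median log2 fold change of 0.08 and T cell markers 0.23. No listed marker with a row was at or under the floor in every tumor. Of the lung lineage markers, 1 of 6 measured genes was called higher, and there was no row for *Sftpa1* or *Scgb1a1*. Of the libraries, KD replicate 1 and CTL replicate 5 lay farthest from the others of their group. CTL replicate 5 was also the shallowest, with 17834745 reads and a floor of 4.48 normalized counts. The other CTL tumors had 25998164 to 29502069 reads. The part of depth in its distance was not tested.

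More guidance genes fell than rose in KD tumors. Of the 61 members, 17 (27.9%) were called, 4 higher and 13 lower, where 10.2% of all genes were called. By direction, 21.3% of members were called lower against 3.97% of all genes, and 6.56% were called higher against 6.20%. With the adjusted p alone, 29 members fell and 13 rose (background 20.7% lower and 21.1% higher), and 19 did not pass. The median log2 fold change was -0.42 over the members and 0.01 over all genes. Ranges of the groups did not overlap for 23 members (37.7%), 17 of them lower, where 21.5% of all genes had separated ranges and 10.9% were separated and lower. Ligands and receptors were called in similar shares, 10 of 33 ligands (3 higher, 7 lower) and 7 of 28 receptors (1 higher, 6 lower).

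**Figure D1:**
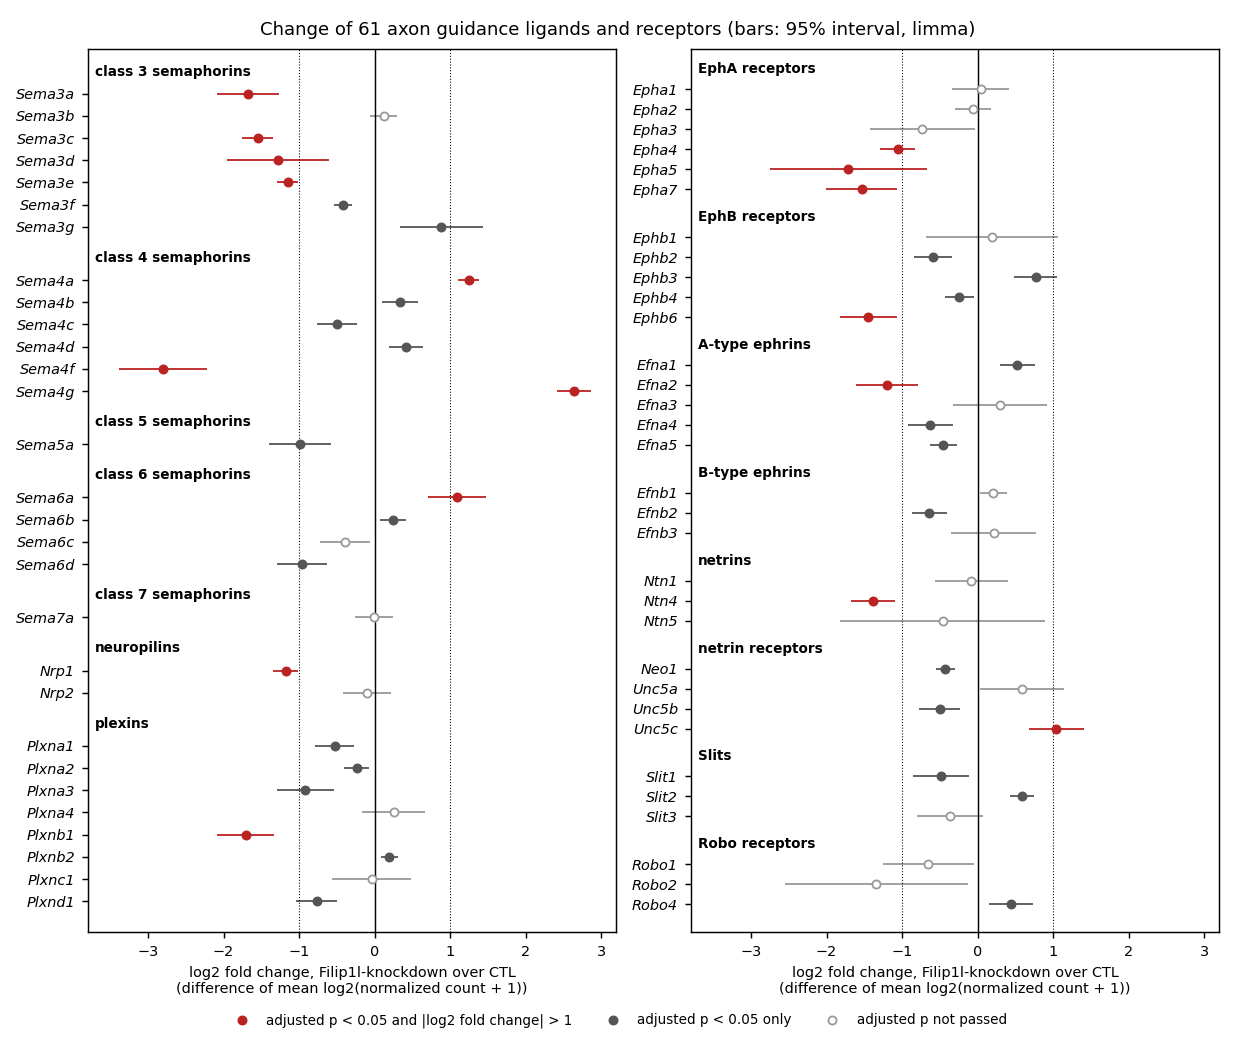
Log2 fold change (x axis, *Filip1l*-knockdown over CTL, 6 tumors each) of each of the 61 members, grouped by family, with 95% intervals from limma. Filled red points passed both thresholds, filled grey points the adjusted p alone and open points neither, and the dotted lines mark a log2 fold change of 1 in either direction. Most red points lie on the left, with *Sema4f* farthest at -2.80 and *Sema4g* farthest on the right at 2.64.

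Among the semaphorins, the cues with the most members here, 16 of 19 passed the adjusted p (7 higher, 9 lower) and 8 were called. Of all genes, 41.9% passed and 10.2% were called. The class 3 genes made up 4 of the 5 semaphorins called lower. Of these 7 secreted ligands, 4 were called lower, *Sema3a*, *Sema3c*, *Sema3d* and *Sema3e*, and their promoters are shown because these 4 genes lie in 1 stretch of chromosome 5 and fell together. Each window runs from 250 bases before to 50 bases after a start that RefSeq annotates on GRCm38.p6, on the + strand. Capitals mark a GC box (GGGCGG), a TCF/LEF core (CTTTGA) or an E-box (CAGGTG), searched on both strands and counted where they overlap. The *Sema3a* and *Sema3c* windows belong to starts inside the genes as GENCODE draws them. The *Sema3d* window ends at 12383215, before the GENCODE gene start at 12383385, and its end matched no GENCODE transcript of the gene.
Sema3d, chr5:12382916-12383215: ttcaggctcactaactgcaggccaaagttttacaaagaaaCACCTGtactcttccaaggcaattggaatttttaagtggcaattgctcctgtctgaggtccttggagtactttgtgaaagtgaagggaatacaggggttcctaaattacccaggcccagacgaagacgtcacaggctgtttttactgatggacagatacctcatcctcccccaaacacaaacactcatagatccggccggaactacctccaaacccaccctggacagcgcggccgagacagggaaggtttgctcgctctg
Sema3a, chr5:13396534-13396833: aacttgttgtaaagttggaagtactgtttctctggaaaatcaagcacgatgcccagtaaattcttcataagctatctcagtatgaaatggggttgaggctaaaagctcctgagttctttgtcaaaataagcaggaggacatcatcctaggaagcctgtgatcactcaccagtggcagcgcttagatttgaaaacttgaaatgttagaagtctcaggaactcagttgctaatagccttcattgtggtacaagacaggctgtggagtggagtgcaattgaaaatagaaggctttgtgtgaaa
Sema3e, chr5:14025026-14025325: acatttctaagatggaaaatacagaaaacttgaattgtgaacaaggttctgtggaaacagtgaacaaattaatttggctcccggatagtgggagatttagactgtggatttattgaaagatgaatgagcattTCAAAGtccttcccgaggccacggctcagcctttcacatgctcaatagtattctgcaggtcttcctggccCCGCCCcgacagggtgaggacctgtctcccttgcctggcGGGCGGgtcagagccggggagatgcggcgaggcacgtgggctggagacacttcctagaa
Sema3c, chr5:17574566-17574865: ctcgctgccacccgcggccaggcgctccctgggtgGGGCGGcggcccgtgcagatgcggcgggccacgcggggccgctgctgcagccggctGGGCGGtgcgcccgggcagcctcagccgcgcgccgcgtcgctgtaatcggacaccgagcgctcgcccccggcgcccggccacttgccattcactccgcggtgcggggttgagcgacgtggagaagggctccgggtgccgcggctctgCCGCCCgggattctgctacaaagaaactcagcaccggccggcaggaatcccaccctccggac

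The 4 windows differ in composition. That of *Sema3c* is 75.7% G or C with 42 CpG dinucleotides and 3 GC boxes, and that of *Sema3a* is 41.3% G or C with 2 CpG dinucleotides and none of the 3 motifs. The *Sema3d* window holds 1 E-box with 8 CpG dinucleotides, and the *Sema3e* window 2 GC boxes and 1 TCF/LEF core with 11. A GC box stands in 35.7% of all 32851 RefSeq windows of this length, a TCF/LEF core in 16.0% and an E-box in 20.2%. Windows on chromosome 18, where *Sema6a* lies, were left out of the members' set but not out of the set of all windows. With that, 53 of the 61 members had a window, 69 windows in all, and these shares were 71.0%, 7.25% and 13.0%. The 2 sets also differ in composition. The median window was 64.3% G or C with 20 CpG dinucleotides among the members, and 52.7% with 7 among all windows. All windows cover 27025 genes, not only those with a row in the expression table. The part of composition in the shares was not tested. These are letter matches and do not show binding.

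*Sema3c* (ENSMUSG00000028780, chromosome 5, 17574281 to 17730268, + strand), a ligand of both neuropilins needed for the outflow tract of the heart, was the most abundant semaphorin per kilobase in CTL tumors. It ranged over 7167 to 9912 normalized counts (median 8143) in CTL tumors and 2468 to 3489 (median 2726) in KD tumors. Its log2 fold change was -1.55 (standard error 0.09, adjusted p = 5.62e-08). The ranges were far apart, and the mean was 34.3% of the CTL mean.

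*Sema3e* (ENSMUSG00000063531, chromosome 5, 14025276 to 14256689, + strand) encodes the class 3 semaphorin that binds plexin D1 without a neuropilin. CTL tumors held 4522 to 5746 normalized counts (median 5438) and KD tumors 2179 to 2692 (median 2378), with a log2 change of -1.15 (standard error 0.07, adjusted p = 3.66e-08). The groups did not overlap and were tight, with a standard error among the smallest of the called members.

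*Sema3a* (ENSMUSG00000028883, chromosome 5, 13125414 to 13602565, + strand), the founding growth cone collapsing factor and a ligand of neuropilin 1, spanned 291 to 485 normalized counts (median 344) in CTL tumors and 79.1 to 193 (median 100.5) in KD tumors. The log2 fold change of *Sema3a* was -1.67 (standard error 0.19, adjusted p = 1.02e-05). All 6 KD tumors lay under the lowest CTL tumor, although replicate 1 stood well above the other 5.

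*Sema3d* (ENSMUSG00000040254, chromosome 5, 12383385 to 12588948, + strand), another neuropilin 1 ligand, was present at low counts, 56.4 to 128 normalized counts (median 101) in CTL tumors and 21.6 to 72.6 (median 36.0) in KD tumors. It fell with a log2 change of -1.28 (standard error 0.31, adjusted p = 0.00466), and its ranges overlapped, because the lowest CTL tumor (56.4) lay under the highest KD tumors. Each KD tumor was below the CTL median.

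These 4 genes span 5.35 megabases of chromosome 5 (12383385 to 17730268, GRCm38), a stretch with 21 annotated coding genes. Of the other coding genes there, 2 had a row. *Cacna2d1*, a calcium channel subunit, had a log2 fold change of -0.17 (standard error 0.13, adjusted p = 0.336), and *Hgf*, the ligand of the Met receptor, had -0.02 (standard error 0.24, adjusted p = 0.962). Both lie between *Sema3e* and *Sema3c* and did not pass the test. The median log2 fold change of chromosome 5 as a whole was -0.01.

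**Figure D2:**
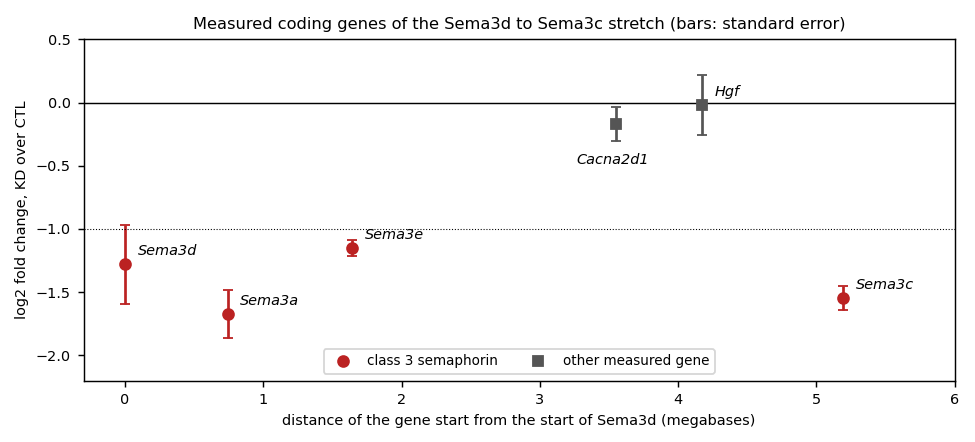
Log2 fold change (y axis, with standard error, 6 tumors in each group) of the 6 measured coding genes between *Sema3d* and *Sema3c*, against the distance of each gene's start from that of *Sema3d* in megabases (x axis). Red circles are class 3 semaphorins, all at or below -1.15, and grey squares are *Cacna2d1* and *Hgf*, at -0.17 and -0.02.

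The other 3 class 3 genes behaved differently. *Sema3f*, a neuropilin 2 ligand, fell more mildly, measuring 2832 to 3327 normalized counts (median 3078) in CTL tumors and 2183 to 2431 (median 2264) in KD tumors, with a log2 change of -0.42 (standard error 0.05, adjusted p = 3.25e-05) and separated ranges. *Sema3g*, known from endothelial cells, rose, measuring 32.1 to 57.8 normalized counts (median 49.6) in CTL tumors and 55.2 to 145 (median 85.2) in KD tumors, with a log2 change of 0.88 (standard error 0.25, adjusted p = 0.0126), and its ranges overlapped. It lies on chromosome 14, where the median log2 fold change was 0.38 (genes averaging 50 or more normalized counts), and with chromosome medians removed its own was 0.50 (adjusted p = 0.147). *Sema3b*, which like *Sema3f* lies in a region often lost in human lung cancer, had a log2 fold change of 0.12 (95% interval -0.06 to 0.29, adjusted p = 0.271).

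The membrane-bound class 4 semaphorins moved in both directions, and all 6 passed the adjusted p, 4 higher and 2 lower. They held the largest fall and the largest rise among the 61 members, in *Sema4f* and *Sema4g*, and the promoters of this pair are shown to set them side by side. Motifs are marked in the same way, and the *Sema4f* window is printed 5′ to 3′ on its own strand. The *Sema4g* window, like those of *Sema3a* and *Sema3c*, belongs to a start inside the gene as GENCODE draws it. That gene begins at 44989101, so most of the window lies within it.
Sema4f, chr6:82939720-82940019, - strand: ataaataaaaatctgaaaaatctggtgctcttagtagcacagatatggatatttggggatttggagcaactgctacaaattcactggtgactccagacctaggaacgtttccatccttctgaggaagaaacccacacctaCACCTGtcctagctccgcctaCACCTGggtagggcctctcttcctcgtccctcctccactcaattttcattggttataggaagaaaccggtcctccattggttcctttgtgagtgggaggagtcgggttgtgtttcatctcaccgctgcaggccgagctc
Sema4g, chr19:44989094-44989393, + strand: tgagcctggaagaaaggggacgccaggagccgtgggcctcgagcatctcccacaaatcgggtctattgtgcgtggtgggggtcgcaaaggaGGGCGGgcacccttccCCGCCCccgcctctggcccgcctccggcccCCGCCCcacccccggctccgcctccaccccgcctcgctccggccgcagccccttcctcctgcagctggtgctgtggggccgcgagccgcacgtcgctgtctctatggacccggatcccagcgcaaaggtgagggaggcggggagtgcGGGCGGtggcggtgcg

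The *Sema4f* window is 48.7% G or C, with 7 CpG dinucleotides, 2 E-boxes and 0 GC boxes. The *Sema4g* window is 73.3% G or C, with 30 CpG dinucleotides, 4 GC boxes and 0 E-boxes. Neither holds a TCF/LEF core.

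*Sema4f* (ENSMUSG00000000627, chromosome 6, 82911885 to 82939769, - strand), a transmembrane semaphorin known from brain and Schwann cells, measured 397 to 763 normalized counts (median 533) in CTL tumors. In KD tumors it came to 44.5 to 148 normalized counts (median 77.6). The log2 fold change was -2.80 (standard error 0.27, adjusted p = 2.54e-06). Even the highest KD tumor lay far below the lowest CTL value, and the mean was 15.2% of the CTL mean.

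*Sema4g* (ENSMUSG00000025207, chromosome 19, 44989101 to 45003397, + strand) encodes a ligand of plexin B2. It measured 958 to 1271 normalized counts (median 1036) in CTL tumors and 5106 to 8142 (median 7002) in KD tumors, with a log2 change of 2.64 (standard error 0.11, adjusted p = 1.94e-09). Here the mean was 626% of the CTL mean, and the lowest KD tumor held several times the highest CTL value. It lies on chromosome 19, whose median log2 fold change was -0.36, and with chromosome medians removed its log2 fold change was 3.00.

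*Sema4a* (ENSMUSG00000028064, chromosome 3, 88435959 to 88461182, - strand), known from immune cells and the retina, was called higher as well. CTL tumors lay at 1052 to 1311 normalized counts (median 1156) and KD tumors at 2569.7 to 3046 (median 2734), with a log2 change of 1.24 (standard error 0.06, adjusted p = 1.65e-08). The ranges did not overlap and both were narrow. The ephrin genes *Efna1*, *Efna3* and *Efna4* lie in the same 0.902 megabases of chromosome 3. Of the 29 other coding genes measured there, 6 rose and 6 fell by the adjusted p, and *Pklr*, a pyruvate kinase, was the 1 called (log2 fold change 2.11).

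The remaining class 4 genes moved by less. *Sema4b* had a log2 change of 0.33 (standard error 0.11, adjusted p = 0.0268) and *Sema4d*, the ligand of plexin B1 and CD72, had a log2 change of 0.41 (standard error 0.11, adjusted p = 0.00618), while *Sema4c*, a plexin B2 ligand, had a log2 change of -0.50 (standard error 0.12, adjusted p = 0.00462). In each of these the ranges overlapped.

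The membrane semaphorins of classes 5 and 6 moved in both directions. *Sema6a* (ENSMUSG00000019647), a ligand of plexins A2 and A4, rose, measuring 109 to 213 normalized counts (median 127) in CTL tumors and 209 to 393 (median 304) in KD tumors, with a log2 change of 1.09 (standard error 0.18, adjusted p = 0.000244). The ranges met, since CTL replicate 3 (213 normalized counts) exceeded the lowest KD tumor (209). *Sema6d*, a plexin A1 ligand, had a log2 change of -0.96 (standard error 0.15, adjusted p = 0.000193), and *Sema5a*, which carries thrombospondin repeats, had a log2 change of -0.99 (standard error 0.19, adjusted p = 0.000871), both just short of the fold threshold and both with overlapping ranges. *Sema6b* had 0.24 (adjusted p = 0.0282). *Sema6c* (-0.39, adjusted p = 0.0511) and *Sema7a*, the lipid-anchored ligand of plexin C1 (-0.01, 95% interval -0.26 to 0.24), did not pass, and *Sema6c* passed under 9 of 24 alternatives.

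Levels of different genes compare only per length, so normalized counts were divided by the longest annotated transcript in kilobases and summed by class. These are levels per kilobase, described without a test. The summed semaphorin level was 6341 to 6781 in CTL tumors (median 6586) and 6434 to 6959 in KD tumors (median 6841), so the total was nearly level while its makeup changed. Class 3 genes made up 57.1% to 58.4% of the sum in CTL tumors and 29.5% to 35.2% in KD tumors. Class 4 genes went the other way, from 27.1% to 28.8% in CTL tumors to 48.5% to 59.2% in KD tumors. Neither pair of ranges overlapped. In mean level, class 3 stood at 57.1% of CTL, class 4 at 199%, class 5 at 49.5%, class 6 at 99.7% and class 7 at 100.2%.

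*Sema3c* made up a median of 22.4% of the summed semaphorin level in CTL tumors and 7.40% in KD tumors. *Sema4g* showed the reverse, with a median of 3.45% in CTL tumors and 22.4% in KD tumors. *Sema4a* had medians of 5.56% and 12.8%, and *Sema3e* 11.9% and 5.20%. In each of these 4 genes the shares of the groups did not overlap.

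**Figure D3:**
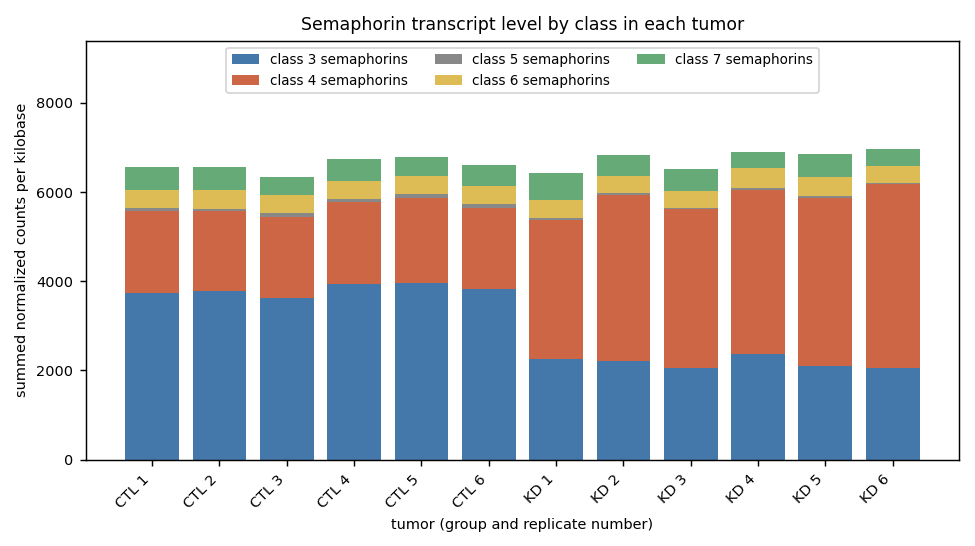
Summed normalized counts per kilobase of transcript (y axis) of the 19 measured semaphorins in each of the 12 tumors (x axis), stacked by class. Total height stays between 6341 and 6959, while the class 3 block is at least 3619 in each CTL tumor and at most 2376 in each KD tumor and the class 4 block is at most 1905 in CTL and at least 3119 in KD tumors.

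Of the 10 measured neuropilins and plexins, the receptors of these ligands, 6 fell and 1 rose by the adjusted p. Of all genes, 20.7% fell and 21.1% rose. *Nrp1* (ENSMUSG00000025810, chromosome 8, 128358604 to 128503363, + strand), the neuropilin that pairs with A-type plexins for Sema3a and also binds VEGF-A, lay at 3093 to 3800.1 normalized counts (median 3458) in CTL tumors and 1288 to 1798 (median 1567) in KD tumors. Its log2 fold change was -1.18 (standard error 0.08, adjusted p = 1.07e-07). The ranges did not overlap. On chromosome 8 the median log2 fold change was -0.20, and with chromosome medians removed *Nrp1* had -0.98 (adjusted p = 8.80e-07), just short of the fold threshold. *Nrp2*, the neuropilin of Sema3f and a VEGF-C co-receptor, had a log2 fold change of -0.10 (95% interval -0.42 to 0.22, adjusted p = 0.616). The ratio of *Nrp1* to *Nrp2* per kilobase, a description with no test, had a median of 1.86 in CTL tumors and 0.851 in KD tumors, with ranges apart.

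Among the plexins, the signaling receptors that act on small GTPases, 5 of 8 fell, 1 rose and 2 did not pass. The share of plexins called, 12.5%, was near the 10.2% of all genes. *Plxnb1* (ENSMUSG00000053646, chromosome 9, 109095389 to 109119917, + strand), the receptor of Sema4d that couples to RhoA exchange factors, was the only one called. It held 3389 to 4208 normalized counts (median 4009) in CTL tumors and 833 to 1769 (median 1085) in KD tumors, with a log2 change of -1.70 (standard error 0.17, adjusted p = 4.16e-06). All KD tumors lay far under the lowest CTL tumor, and replicates 1 and 4 were the highest among them.

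*Plxnb2*, the close relative of *Plxnb1* and the receptor of Sema4c and Sema4g, had the highest level per kilobase of all 61 members in both groups (2574 in CTL and 2940.2 in KD tumors). Its change was small but separated, measuring 15302 to 17331 normalized counts (median 17064) in CTL tumors and 18224 to 20618 (median 18769.8) in KD tumors, with a log2 change of 0.19 (standard error 0.05, adjusted p = 0.00883). The ratio of *Plxnb1* to *Plxnb2* per kilobase was 0.149 to 0.187 in CTL tumors and 0.0332 to 0.0727 in KD tumors.

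*Plxnd1*, the Sema3e receptor, best known in endothelium, had a log2 change of -0.77 (standard error 0.13, adjusted p = 0.000271) and separated ranges. Of the A-type plexins, which signal for class 3 and class 6 ligands, *Plxna3* had a log2 change of -0.92 (standard error 0.18, adjusted p = 0.000797), *Plxna1* had a log2 change of -0.53 (standard error 0.12, adjusted p = 0.00276), and *Plxna2* had -0.24 (adjusted p = 0.0241). *Plxna4* (0.25, 95% interval -0.16 to 0.67) and *Plxnc1* (-0.04, 95% interval -0.56 to 0.48) did not pass the test.

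Several of these receptors are known from blood vessels, and endothelial markers were measured beside them. Of the 12 endothelial markers, 8 rose by the adjusted p and 0 fell, with a summed level of 4687 to 5617 normalized counts in CTL tumors and 5592 to 8821 in KD tumors. Members known from vessels moved in both directions by the adjusted p. *Nrp1*, *Plxnd1*, *Unc5b*, *Efnb2* and *Ephb4* fell, *Robo4* (log2 change 0.44) and *Sema3g* (0.88) rose, and *Nrp2* did not pass. Fibroblast markers had 1 of 8 higher and 3 of 8 lower by the adjusted p, with a sum of 199873 to 291030.0 in CTL tumors and 100455 to 275696 in KD tumors. The part of endothelial or fibroblast content in the values of the members was not tested.

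**Figure D4:**
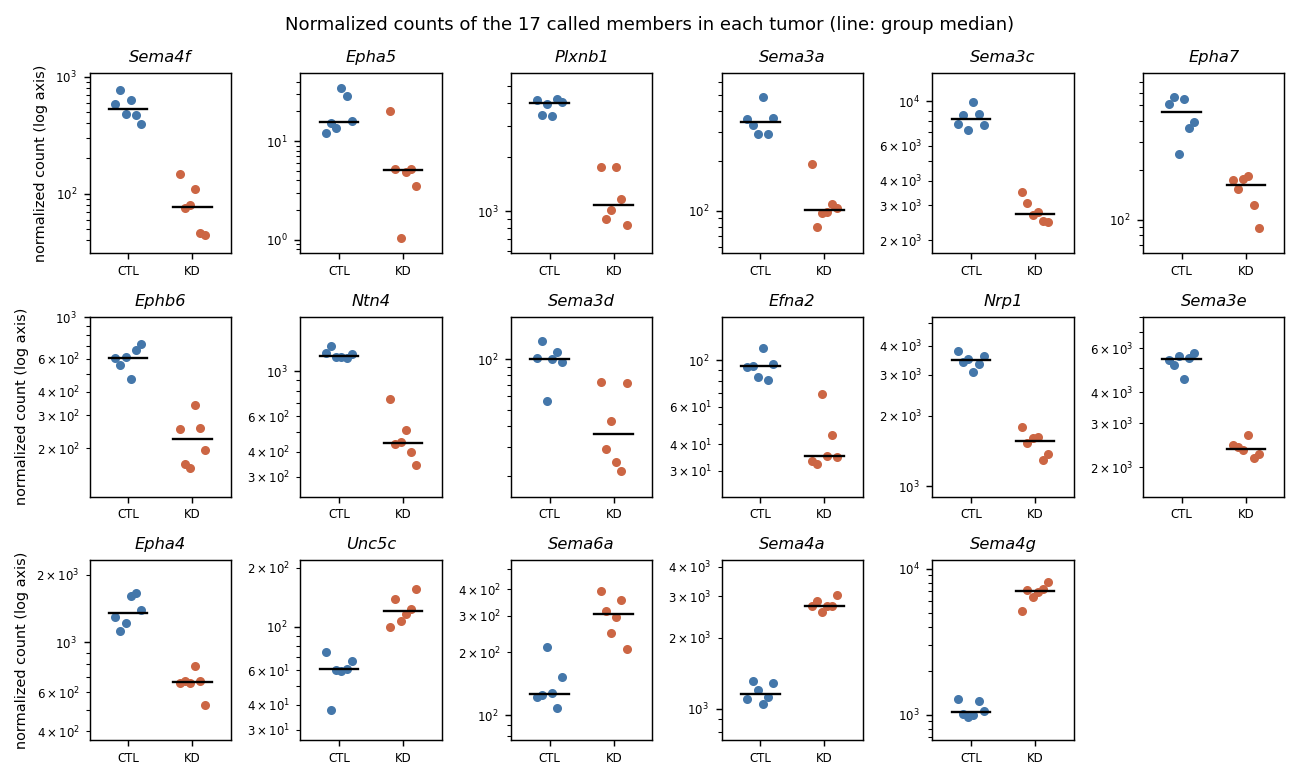
Normalized counts (log y axis) of the 17 called members in each tumor, CTL in blue and *Filip1l*-knockdown (KD) in orange, 6 tumors each, with the group median as a line, and genes ordered from the largest fall to the largest rise. In 14 panels the groups do not overlap, and the exceptions are *Epha5*, *Sema3d* and *Sema6a*.

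The Eph receptors, the largest family of receptor tyrosine kinases, fell in 6 of 11 cases and rose in 1 by the adjusted p. Of the 11, 4 were called, all lower, where 3.97% of all genes were called lower. *Epha7* (ENSMUSG00000028289, chromosome 4, 28813131 to 28967499, + strand) is a receptor for A-type ephrins. It held 251 to 562 normalized counts (median 454) in CTL tumors and 89.1 to 185 (median 164) in KD tumors, with a log2 change of -1.53 (standard error 0.22, adjusted p = 7.25e-05). The ranges did not overlap.

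*Ephb6* (ENSMUSG00000029869, chromosome 6, 41605482 to 41620509, + strand), an Eph receptor without kinase activity, had 468 to 719 normalized counts (median 610.2) in CTL tumors and 158 to 339.8 (median 224) in KD tumors. Its log2 fold change was -1.45 (standard error 0.17, adjusted p = 1.71e-05), again with no overlap.

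*Epha4* (ENSMUSG00000026235, chromosome 1, 77367185 to 77515088, - strand), which binds both A-type and B-type ephrins, was the most abundant of the 4 per kilobase. Its values were 1127 to 1658 normalized counts (median 1349) in CTL tumors and 523 to 787 (median 665) in KD tumors, with a log2 change of -1.06 (standard error 0.11, adjusted p = 4.21e-06). The groups were separated, and without KD replicate 6 the log2 fold change was -0.99, on the other side of the fold threshold.

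*Epha5* (ENSMUSG00000029245, chromosome 5, 84054761 to 84417382, - strand), chiefly a neuronal receptor, was close to the limit of detection. CTL tumors had 12 to 34.9 normalized counts (median 15.5) and KD tumors 1.04 to 20.2 (median 5.04), of which 1 tumor was under the floor. The fitted log2 fold change was -1.71 (standard error 0.48, adjusted p = 0.011). The ranges overlapped because KD replicate 1, at 20.2, exceeded 4 of the CTL tumors.

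*Epha2*, the ephrin-A1 receptor prominent in epithelial cancers, was the second most abundant member per kilobase in both groups and had a log2 fold change of -0.06 (95% interval -0.30 to 0.18, adjusted p = 0.695). Of the EphB receptors known from the gut epithelium, *Ephb3* rose with a log2 change of 0.77 (standard error 0.13, adjusted p = 0.000367) and separated ranges, and *Ephb2* fell with a log2 change of -0.59 (standard error 0.12, adjusted p = 0.000958). Their ratio per kilobase, *Ephb3* to *Ephb2*, was 0.947 to 1.54 in CTL tumors and 2.46 to 3.64 in KD tumors. *Ephb4*, the venous receptor of ephrin-B2, had -0.24 (adjusted p = 0.0388). *Epha3* (-0.73, adjusted p = 0.0842), *Epha1* (0.04, 95% interval -0.33 to 0.41) and *Ephb1* (0.19, 95% interval -0.68 to 1.06) did not pass.

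Their ligands, the ephrins, fell in 4 of 8 cases and rose in 1 by the adjusted p, where 20.7% of all genes fell and 21.1% rose. The share of ephrins called, 12.5%, was near the 10.2% of all genes. *Efna2* (ENSMUSG00000003070, chromosome 10, 80179482 to 80190010, + strand), a lipid-anchored ligand, was the one called. It stood at 80.7 to 115 normalized counts (median 93.4) in CTL tumors and 32.3 to 68.9 (median 35.1) in KD tumors, with a log2 change of -1.20 (standard error 0.19, adjusted p = 0.000184). The ranges did not overlap, though replicate 3 of the *Filip1l*-knockdown group came near the lowest CTL tumor.

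*Efnb2*, the arterial ephrin that pairs with *Ephb4*, fell, measuring 3913 to 5194 normalized counts (median 4331) in CTL tumors and 2112 to 3229 (median 3062) in KD tumors, with a log2 change of -0.64 (standard error 0.11, adjusted p = 0.000264) and separated ranges. It also lies on chromosome 8, and its log2 fold change was -0.44 with chromosome medians removed. *Efna4* had a log2 change of -0.63 (standard error 0.14, adjusted p = 0.00226) and *Efna5* had a log2 change of -0.45 (standard error 0.09, adjusted p = 0.00071), each with separated ranges. *Efna1*, the main ligand of *Epha2*, rose with a log2 change of 0.53 (standard error 0.11, adjusted p = 0.00135), and its ranges overlapped. Per kilobase, *Efna1* was 1.64 to 2.24 times *Efna4* in CTL tumors and 3.02 to 5.12 times in KD tumors. *Efnb1* (0.21, adjusted p = 0.0636), *Efna3* (0.30, adjusted p = 0.444) and *Efnb3* (0.21, adjusted p = 0.555) did not pass, and *Efnb3* stayed at or below 28.2 normalized counts in every tumor.

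Netrin signaling had 1 called ligand of 3 measured and 1 called receptor of 4, in opposite directions, where 10.2% of all genes were called. *Ntn4* (ENSMUSG00000020019, chromosome 10, 93640681 to 93747207, + strand), a netrin of basement membranes that binds laminin, held 1165 to 1329.5 normalized counts (median 1195) in CTL tumors and 342 to 727 (median 443) in KD tumors. Its log2 fold change was -1.39 (standard error 0.14, adjusted p = 3.22e-06). The ranges did not overlap, and KD replicate 1 was again the highest of its group. *Ntn4* made up most of the netrin level per kilobase, and the summed netrin level was 339.9 to 396.6 in CTL tumors and 113 to 272 in KD tumors. *Ntn1*, the classical attractant, had -0.09 (95% interval -0.57 to 0.40) and *Ntn5* -0.46 (95% interval -1.82 to 0.89), and neither passed.

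*Unc5c* (ENSMUSG00000059921, chromosome 3, 141465216 to 141834924, + strand), a repulsive netrin receptor, was low and rose, measuring 37.9 to 74.0 normalized counts (median 60.8) in CTL tumors and 99.8 to 155 (median 119.6) in KD tumors, with a log2 change of 1.04 (standard error 0.17, adjusted p = 0.000239). The ranges did not overlap, and without CTL replicate 2 or KD replicate 6 the log2 fold change was 0.92 or 0.97, under the fold threshold. *Unc5b*, the netrin receptor of blood vessels and by far the most abundant of this family per kilobase, fell with a log2 change of -0.50 (standard error 0.13, adjusted p = 0.0055), with overlapping ranges. *Neo1*, neogenin, the receptor of netrins and of repulsive guidance molecules, fell, measuring 2878 to 3571 normalized counts (median 3209.5) in CTL tumors and 2182 to 2568 (median 2414) in KD tumors, with a log2 change of -0.43 (standard error 0.06, adjusted p = 5.5e-05), and its ranges were separated. *Unc5a* had 0.59 (adjusted p = 0.0841). The ratio of *Unc5b* to *Unc5c* per kilobase was 175 to 468 in CTL tumors and 52.4 to 111 in KD tumors.

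Among the Slits and Robos, by limma 0 of the 6 measured genes were called, and edgeR and DESeq2 each called *Robo2*. By the adjusted p 3 of the 6 passed, against 41.9% of all genes, and 5 had an unadjusted p under 0.05, against 49.1% of all genes. *Slit2*, a secreted ligand of Robo1, rose, measuring 1623 to 2242 normalized counts (median 1904) in CTL tumors and 2572 to 2943 (median 2859.6) in KD tumors, with a log2 change of 0.59 (standard error 0.07, adjusted p = 2.28e-05) and separated ranges. *Slit1*, low in every tumor, fell with a log2 change of -0.49 (standard error 0.17, adjusted p = 0.0346), and on its chromosome 19 with chromosome medians removed it had -0.13 (adjusted p = 0.591). *Robo4*, an endothelial receptor, rose with a log2 change of 0.44 (standard error 0.13, adjusted p = 0.0163), with overlapping ranges. *Slit3* (-0.37, adjusted p = 0.17), *Robo1* (-0.65, adjusted p = 0.0781) and *Robo2* (-1.34, standard error 0.57, adjusted p = 0.0727) did not pass. For *Robo2* the CTL tumors themselves ran from 5.98 to 82.6 normalized counts, and on recovered reads its log2 fold change was -1.78 by edgeR (adjusted p = 0.024) and by DESeq2 (adjusted p = 0.00861).

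Among the KD tumors, 2 often lay nearest the CTL group. KD replicate 1 held the highest KD value in 7 of the 13 genes called lower and replicate 4 in 5 of them. Without KD replicate 1 all 17 calls remained and *Epha3*, *Sema5a* and *Sema6d* joined them. With both KD replicate 1 and CTL replicate 5 left out, a choice made after seeing the data, 16 of the 17 remained, without *Sema6a*, and *Epha3*, *Robo2* and *Sema6d* were added.

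In order of level per kilobase in CTL tumors, *Plxnb2* (2574), *Epha2* (1793), *Sema3c* (1507), *Unc5b* (1432) and *Nrp1* (949) stood highest. The order changed in KD tumors, where *Plxnb2* (2940.2), *Epha2* (1709), *Sema4g* (1497), *Efna1* (1282) and *Efnb1* (1020.3) led. *Sema4g* moved from rank 23 of 61 to rank 3, and *Sema3c* from rank 3 to rank 13. *Epha5* was lowest in both groups. Among the members, 2 were at or under the floor of 3 reads in a tumor, *Epha5* and *Ntn5*, each in 1 tumor.

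Other genes of guidance signaling, the co-receptors, adaptors and cytoskeletal effectors of these ligands and receptors, were described from a list of 65, of which 61 had a row. Of these, 11 were called, 2 higher and 9 lower, where 10.2% of all genes were called. By the adjusted p 7 rose and 25 fell, where 21.1% of all genes rose and 20.7% fell. The median log2 fold change was -0.17. Of the 9 called lower, 6 encode co-receptors, adhesion molecules or secreted factors. *Flrt1* (-2.98) and *Flrt2* (-1.14) encode Unc5-binding adhesion proteins, *Chl1* (-2.51) an L1-family partner of neuropilin 1, *Bdnf* (-2.54) a neurotrophin, *Sdc2* (-1.60) a heparan sulfate proteoglycan and *Draxin* (-1.36) a repellent that binds Dcc.

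Intracellular effectors called lower were *Chn1* (-2.39), a Rac-inactivating protein that acts under *Epha4*, *Srgap3* (-1.01), which acts under Robo receptors, and *Ablim3* (-1.82), an actin-binding protein. The exchange factor *Kalrn* (1.14) was among those called higher. *Bdnf* held 319 to 565 normalized counts in CTL tumors against 35.8 to 125 in KD tumors, and *Chn1* 215 to 374 against 34.9 to 108, so neither pair of ranges overlapped. *Flrt1* was low throughout, at 26.5 to 59.0 and 1.75 to 12.1, with its lowest KD tumor under the floor.

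Because many of these genes are known from nerve, neuronal and Schwann cell markers were set beside them. Of 8 neuronal markers, 4 had a row, and 1, *Nefh*, was called lower. The sum of these 4 was 1096 to 1693 normalized counts in CTL tumors and 595 to 923 in KD tumors. Most of that sum was *Tubb3*, with means of 1356 normalized counts in CTL and 757 in KD tumors. *Tubb3* fell by the adjusted p alone. *Syt1* (log2 change -0.79) and *Nefl* (0.26) did not pass, so the sums mainly follow 1 gene. *Snap25*, *Nefm*, *Elavl4* and *Rbfox3* had no row. Of 8 Schwann cell markers, 6 had a row and 2 were called higher, with a sum of 2717 to 3255 and 3373 to 4603, while *Sox10* and *Ngfr* had no row. The part of nerve content in the values of the guidance genes was not tested.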

How the data were processed

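Libraries made from oligo(dT)-enriched RNA of 12 tumors were sequenced in paired-end mode. Per the labels and the paper's methods, the authors trimmed reads with Trimmomatic 0.36, aligned them with STAR 2.5.2b (build named as mm10), counted unique hits per gene with featureCounts of Subread 1.5.2 and divided the counts by DESeq2 size factors. Whether counting used strand is not given in the sources used here. The deposited values are thus a normalized signal, not corrected for gene length. In every tumor they were whole multiples of a step of 0.865 to 1.49 (100% within a tolerance of 0.01), from which whole reads were recovered, 17834745 to 32419578 per tumor. Floors cover counting error only.

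The table holds 15687 genes with a lowest mean of 9.28, and the filter at a mean of 5 removed 0. Groups were compared with limma 3.58.1 (R 4.3.3) on log2(normalized count + 1) with a variance trend and Benjamini-Hochberg adjustment over all genes, since the values are normalized. Single genes were also tested by exact permutation, 2-sided, over the 924 possible arrangements (smallest p 0.00216, reached by all 14 called members with separated ranges, and at most 0.0108 among the 17 called). Symbols, positions and transcript lengths came from GENCODE vM21 (GRCm38, 15655 of 15687 identifiers matched), and promoters from RefSeq (GRCm38.p6). No protein sequence was used here.

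All members are named. Those past both thresholds are given with values by group, and the others by fold change, adjusted p or interval. The rule for the members uses symbols and no measured value, but the gene families, the list of signaling partners and the marker lists were chosen with earlier results of these data known. Replicate numbers do not pair tumors: after group means were removed, tumors sharing a number had correlations of -0.269 to 0.0990, and 0 tumors correlated best with their own number. Alternatives were pseudocounts of 0.5 and 8, no filter, a filter at a mean of 20, 75th percentile scaling, same-total scaling, no trend, a replicate block, chromosome medians removed, edgeR 4.0.16 (quasi-likelihood, TMM) and DESeq2 1.42.0 on recovered reads, and leaving out each tumor. Leaving out 2 tumors together was added after seeing the data. The tests were tried on simulated data first. Figures used matplotlib 3.10.9.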

Additional observations from a re-analysis of the deposited data

Results flagged for a closer look

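Both groups of the 61 members were searched for a tumor far from the other 5, 122 groups in all, and 9 held one, where chance alone gives about 1 in 20. Of the 9, 6 were KD replicate 1, the tumor that also lay farthest from its group over all genes. It was the highest KD tumor for *Sema3a* (193 normalized counts, next 109), *Epha5* (20.2, next 5.21), *Ntn1* (195, next 96.0), *Ntn5* (68.6, next 13.1) and *Plxnc1* (424, next 178), and the lowest for *Efnb1* (2437, next 3287). Without it, *Efnb1* had a log2 fold change of 0.30 (adjusted p = 0.000162), *Ntn1* -0.31 (adjusted p = 0.0821), *Plxnc1* -0.28 (adjusted p = 0.124), *Ntn5* -0.96 (adjusted p = 0.155), *Epha5* -2.08 (adjusted p = 0.000945) and *Sema3a* -1.84 (adjusted p = 2.75e-07).

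The other 3 were in different tumors. *Sema3a* was 485 in CTL replicate 4, with the next at 363. *Efna2* was 68.9 in KD replicate 3, with the next at 44.1. *Slit2* was 2572 in KD replicate 2, the lowest of its group, with the next at 2812. For *Sema3a*, *Efna2* and *Slit2* CTL and KD values did not overlap with these tumors included.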

How the results depend on the processing

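The 4 members called higher and 13 called lower became 3 and 12 with a pseudocount of 8, 3 and 15 with scaling to the same total, and 4 and 15 by edgeR and by DESeq2 on recovered reads. Leaving out 1 tumor gave 3 to 5 higher, 12 to 16 lower, 38 to 46 past the adjusted p (main 42, of which 11 to 14 higher and 27 to 32 lower), 10 to 12 signaling partners and 1513 to 1713 genes in all. Of the 17 called members, 12 were called under all 24 alternatives. The exceptions were *Epha5* (pseudocount of 8, -0.97, and not tested with the filter at a mean of 20), *Unc5c* (pseudocount of 8, 0.96; same total, 1.00; and without 1 of 2 tumors), *Nrp1* (chromosome medians removed), *Epha4* (without KD replicate 6) and *Sema6a* (without 2 tumors, 0.94). None of the 42 members past the adjusted p changed sign, and 35 stayed past it wherever tested. With a replicate block, in which numbers only name tumors and no pairing is known, the same 17 were called and 40 passed the adjusted p, with *Ephb4*, *Plxna2* and *Slit1* lost and *Slit3* gained. Leaving out 1 tumor took *Ephb4* (in 8 fits), *Slit1* (7), *Sema4b* (6), *Sema6b* (6) and *Plxna2* (3) to adjusted p-values of at most 0.0885, 0.0771, 0.063, 0.0627 and 0.0579. It brought over the fold threshold *Sema5a* (-1.15 to -1.02, without CTL 2 or 4 or KD 1, 4 or 5) and *Sema6d* (-1.04 without CTL 3, -1.09 without KD 1). The same held for *Plxna3* (-1.02, without KD 4, and just over the threshold without CTL 3) and *Sema3g* (1.01, without KD 2). It held too for *Epha3* (-1.01, without KD 1, where its adjusted p was 0.00404). *Robo2*, already past the fold threshold, passed the adjusted p without CTL 5 (-1.70, adjusted p = 0.0193) or CTL 2 (-1.58, adjusted p = 0.0437). The adjusted p was also lost by *Robo4* without 2 tumors together (0.0609) and by *Sema3g* with chromosome medians removed (0.147). Of the 19 members that did not pass, those that passed under some alternative were *Sema6c* (9 alternatives, 0.0299 to 0.0495), *Robo2* (5), *Efnb1* (3), *Slit3* (3), *Epha3* (2), *Robo1* (2) and *Unc5a* (1).

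Signs turned for 5 members that did not pass: *Ntn1* (0.0154 by edgeR, 0.0260 by DESeq2, -0.307 to 0.0225 without 1 tumor), *Plxnc1* (0.0600 by edgeR, 0.0726 by DESeq2, -0.281 to 0.0514 without 1 tumor), *Sema7a* (0.00251 by DESeq2, -0.0924 to 0.0522 without 1 tumor), *Epha1* (-0.00123 with the same total, -0.0804 to 0.13 without 1 tumor) and *Epha2* (0.00981 without 2 tumors). The causes of these changes were not tested. Low counts limit *Epha5*, *Ntn5*, *Efnb3*, *Ephb1* and *Robo2*.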
